A study of Mus musculus with 6 samples.

Results

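The Gadd45 family and a group of p53 target genes were followed in gastrocnemius muscle of denervated mice, as a list of 10 genes, Gadd45a, Gadd45b, Gadd45g, Cdkn1a, Ccng1, Zmat3, Mdm2, Sesn1, Trp53inp1 and Bax. The members were taken as every probe set whose only gene symbol in the platform annotation was one of these. This gave 16 probe sets for 9 of the 10 genes, out of 45037 probe sets and 17097 named genes on the array. No probe set named Bax alone, so that Bax, a pore-forming protein of the outer mitochondrial membrane, has no value here. The study used 6 Affymetrix mouse arrays, with 3 for each of its groups, MA and control. Both groups were male ICR mice, 7 weeks old when housed, whose sciatic nerves were cut on both sides with removal of a 5 mm piece, and both were examined on day 14 after the surgery. The MA group ate the AIN-93G diet with 0.27% maslinic acid (MA), a triterpene of olive peel, from 1 week before the surgery, and the control group ate the same diet without it. There was no innervated group, so that every difference here is one of diet within denervated muscle.

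p53 is a transcription factor that is stabilized by DNA damage and other stress and switches on genes of cell cycle arrest, repair, metabolism and cell death, among them Mdm2, whose product marks p53 for degradation in a feedback loop. The Gadd45 proteins are small nuclear proteins without an enzymatic activity of their own that bind partners such as the kinase MEKK4, PCNA and the cyclin B1 complex of Cdk1. In skeletal muscle, Gadd45a and Cdkn1a are known as genes induced by denervation and disuse. The deacetylase HDAC4 and the transcription factor ATF4 are among the known inducers of Gadd45a, not necessarily both under the same stimulus.

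The values are log2 signals that the authors obtained with robust multi-array analysis (RMA). Differences are MA minus control, from a limma fit of all 45037 probe sets whose p-values were corrected over that whole table (Benjamini-Hochberg). A gene stands for its brightest probe set, an error after ± is the SD over 3 arrays, and rose or fell is written only of an adjusted p under 0.05. Skeletal muscle markers were present, with 10 of 10 fiber genes above background, which was set at 3.90, the highest of 22 probe sets for nonspecific binding. A further one, made of G and C alone, stood apart at 7.24. The 18 probe sets of the hybridization controls, which are bacterial and phage transcripts added to each sample, were higher in the MA arrays, by 0.04 to 0.35 with a median of 0.17. When each array was centred on the median of its controls instead, the median over all probe sets moved by -0.26, and smaller positive differences became negative. With the mean of the controls in place of their median, a choice made after seeing the data, the shift was -0.18. Centred on the controls, without further words, refers to their median. Nothing in the sources ties an array to a mouse or a pool of mice, and the tests therefore rest on a spread among arrays that may be technical. Arrays within a group correlated across probe sets with r = 0.9992 to 0.9997, and the median within-group SD was 0.019 for the members' probe sets and 0.037 for all.

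Promoter windows of the members are shown first, to set the letters of the Gadd45 family beside those of the p53 targets. RefSeq windows of 300 bases on GRCm38.p6, from 250 bases before a transcription start to 50 after it, were found for 8 of the 10 genes, 10 windows in all, and those of the Gadd45 family and of 3 p53 targets are printed 5′ to 3′ on the gene's strand. Capitals mark matches, on either strand, to the p53 half-site, to CCAAT, to TATAAA and to the C/EBP-ATF element TGATGNAA.
Gadd45a, chr6:67037358-67037657, minus strand: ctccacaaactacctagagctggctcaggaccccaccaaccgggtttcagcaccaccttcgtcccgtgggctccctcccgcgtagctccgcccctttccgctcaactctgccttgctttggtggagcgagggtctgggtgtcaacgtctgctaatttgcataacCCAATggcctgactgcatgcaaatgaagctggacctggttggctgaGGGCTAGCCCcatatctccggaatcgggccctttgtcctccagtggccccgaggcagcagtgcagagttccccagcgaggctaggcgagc
Gadd45b, chr10:80929841-80930140, plus strand: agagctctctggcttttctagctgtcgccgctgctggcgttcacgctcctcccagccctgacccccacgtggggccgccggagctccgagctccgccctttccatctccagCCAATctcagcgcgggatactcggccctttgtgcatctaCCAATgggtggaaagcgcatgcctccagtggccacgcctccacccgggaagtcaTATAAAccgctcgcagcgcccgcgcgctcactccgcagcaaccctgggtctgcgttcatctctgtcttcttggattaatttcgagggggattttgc
Gadd45g, chr13:51846425-51846724, plus strand: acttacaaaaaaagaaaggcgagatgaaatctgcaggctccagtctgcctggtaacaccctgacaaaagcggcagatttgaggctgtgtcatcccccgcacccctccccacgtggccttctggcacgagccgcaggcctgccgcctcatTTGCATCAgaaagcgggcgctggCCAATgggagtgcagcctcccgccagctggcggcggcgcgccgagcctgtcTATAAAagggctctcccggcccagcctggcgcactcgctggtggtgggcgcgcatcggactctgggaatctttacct
Cdkn1a, the upstream of its starts, chr17:29090729-29091028, plus strand: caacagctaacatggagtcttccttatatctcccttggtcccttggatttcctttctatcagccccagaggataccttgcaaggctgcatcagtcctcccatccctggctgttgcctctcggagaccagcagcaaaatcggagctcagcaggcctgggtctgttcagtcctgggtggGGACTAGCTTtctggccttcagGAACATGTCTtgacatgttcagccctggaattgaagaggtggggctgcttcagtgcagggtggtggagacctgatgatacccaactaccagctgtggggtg
Ccng1, chr11:40755237-40755536, minus strand: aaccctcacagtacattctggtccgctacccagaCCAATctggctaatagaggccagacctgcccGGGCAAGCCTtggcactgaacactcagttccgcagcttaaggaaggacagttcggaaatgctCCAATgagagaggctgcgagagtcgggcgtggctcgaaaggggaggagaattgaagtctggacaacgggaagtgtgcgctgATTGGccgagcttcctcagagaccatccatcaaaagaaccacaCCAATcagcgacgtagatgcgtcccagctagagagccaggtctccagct
Mdm2, chr10:117710709-117711008, minus strand: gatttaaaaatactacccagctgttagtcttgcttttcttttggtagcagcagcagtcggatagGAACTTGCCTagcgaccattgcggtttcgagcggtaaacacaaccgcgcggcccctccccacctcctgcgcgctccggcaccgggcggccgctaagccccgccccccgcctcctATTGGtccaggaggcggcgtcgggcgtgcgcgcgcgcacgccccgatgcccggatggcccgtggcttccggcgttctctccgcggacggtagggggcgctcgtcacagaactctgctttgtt

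A p53 half-site was matched in 6 of the 10 windows, those of Gadd45a, Ccng1, Mdm2, Bax, 1 of the starts of Cdkn1a and 1 of Sesn1, and 8.36% of the 32851 RefSeq windows hold one. The upstream window of Cdkn1a had 2 matches, at positions -73 and -51 when the start is counted as 0. The windows of Gadd45b and Gadd45g had none. They shared a TATAAA, held by 13.6% of all windows, and a CCAAT, held by 37.4%, while Gadd45g alone among the members matched TGATGNAA, which 3.97% of windows hold. The GC box GGGCGG, in 35.7% of windows, was matched in 6 genes of the list but not in Gadd45g or Ccng1. Searches for the NF-κB site (4.51% of windows), TTCNNNGAA (8.3%) and TGACGTCA (1.79%) gave no match in any member window. Matches describe the letters of these windows only, and known p53 sites of several of these genes lie outside them.

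**Figure D1:**
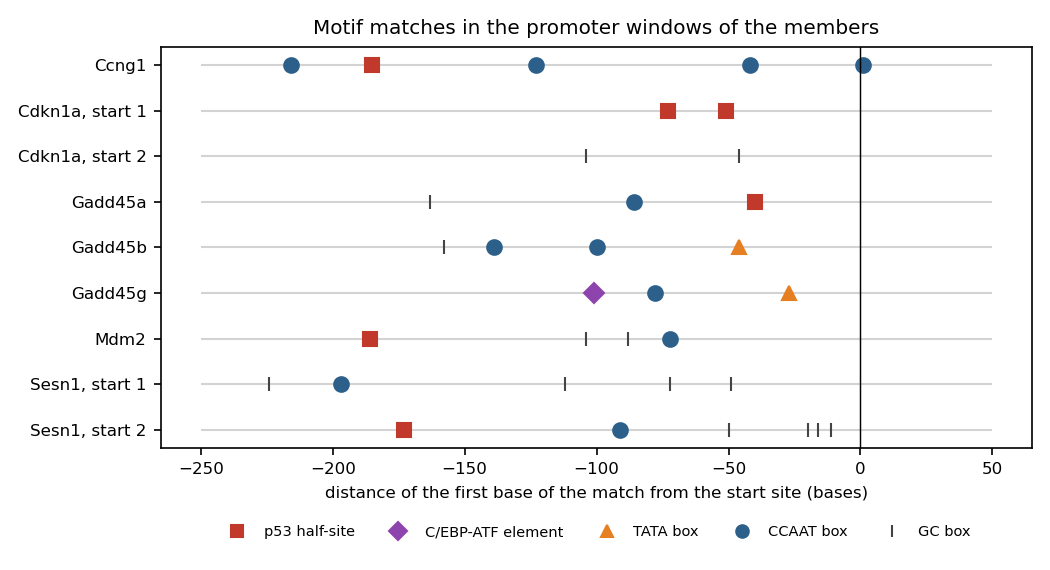
Position of motif matches in the RefSeq promoter windows of the 7 measured members that have one, as the distance in bases of the first base of a match from the transcription start (vertical line at 0). Red squares, p53 half-sites, stand in 5 of these 9 windows, those of Gadd45a, Ccng1, Mdm2 and a start each of Cdkn1a and Sesn1, and Gadd45b and Gadd45g carry a TATAAA (triangles) and no red square.

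The p53 targets did not move in one direction. Trp53inp1 and Gadd45g fell most, by 1.84-fold and 1.64-fold, and Zmat3 rose most, by 1.37-fold. Of the 9 measured genes, 5 were lower and 4 were higher in the MA group, where 23% of all 17097 genes were lower and 24.7% higher at the same threshold. Past a fold of 1.2, 2 were lower and 1 was higher, against 6.87% and 5.92% of all genes. Of the 8365 genes at least as bright as the dimmest member, 65.7% passed in either direction. The median difference was -0.09 over the 9 genes and 0.01 over all genes, and the median size of the difference was 0.16 and 0.08. Centred on the hybridization controls, 7 members were lower and 1 was higher, where 89.1% of all genes were lower and 3.94% higher. Under that centring Cdkn1a and Ccng1 were lower and Sesn1 did not pass. Counted as probe sets, 7 of 16 were higher, 7 were lower and 2 did not pass, where 21.6% and 21.4% of all probe sets were higher and lower. MA and control arrays were fully separate at 16 of 16 member probe sets, and at 53.9% of all probe sets. At each of them the two-sided exact permutation test of 3 arrays against 3 gave p = 0.1, the smallest that this design allows.

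**Figure D2:**
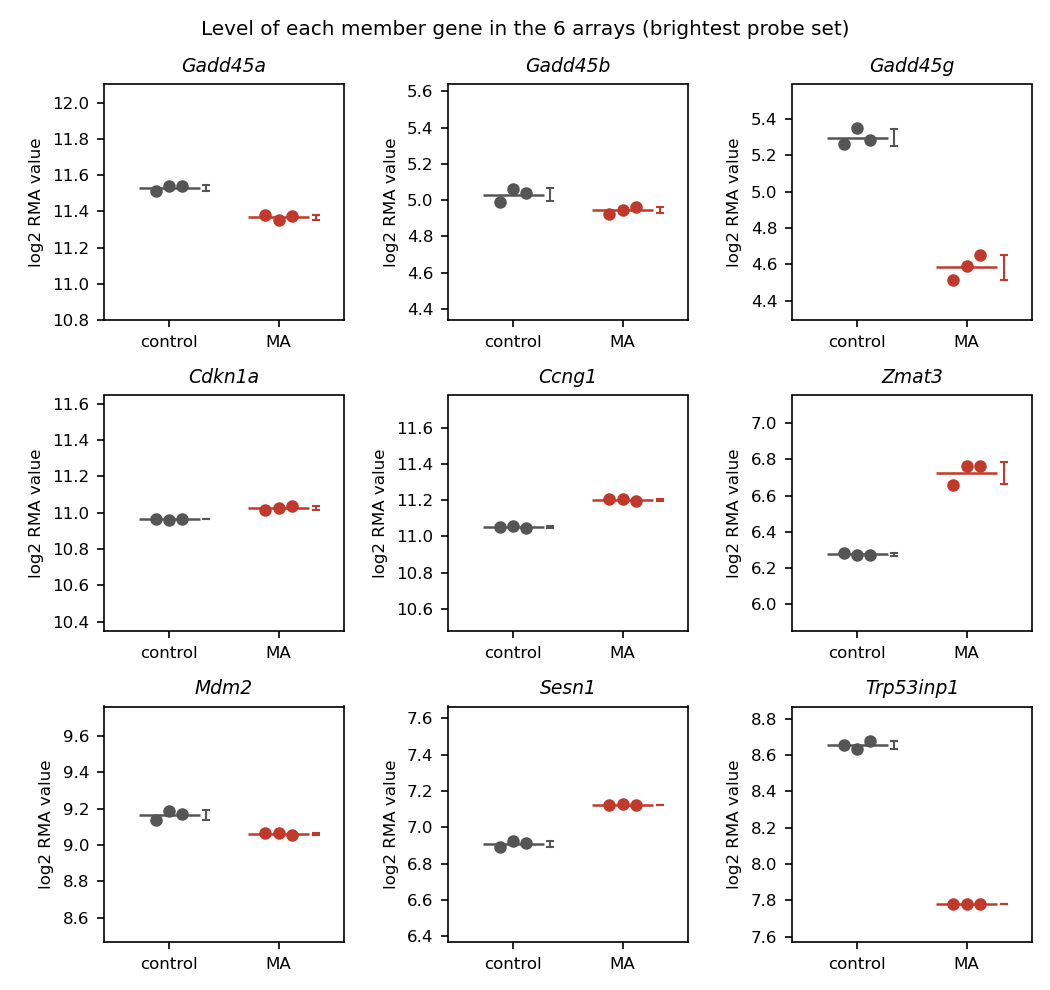
Log2 RMA value of the 9 measured genes in each array at the brightest probe set, with control arrays in grey and MA arrays in red, a line at the group mean and a bar beside it for the SD (n = 3). Every panel spans the same range of the log2 scale. The MA arrays of Trp53inp1 at 7.78 and of Gadd45g at 4.51 to 4.65 lie well under their controls, those of Zmat3 at 6.66 to 6.76 lie above, and the groups are close in Cdkn1a and Gadd45b. Centred on the hybridization controls, Cdkn1a and Ccng1 were lower and Sesn1 did not pass.

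The 3 Gadd45 genes were all lower in the MA group, by very different amounts. Gadd45g had log2 values of 4.51, 4.59 and 4.65 in the MA arrays and 5.26, 5.35 and 5.28 in the control arrays. Every control array stood well above every MA array, and the difference was -0.71 (standard error 0.039, adjusted p = 2.52e-06). Gadd45a, the member best known from denervated muscle, had values of 11.38, 11.35 and 11.38 in the MA arrays and 11.51, 11.54 and 11.54 in the control arrays. Its groups were separate but near to each other, with a difference of -0.16 (95% interval -0.21 to -0.11, adjusted p = 4.94e-04), which is 1.12-fold. Gadd45b, which NF-κB and other stress signals induce, had 4.93, 4.94 and 4.96 in the MA arrays and 4.99, 5.06 and 5.04 in the control arrays. The gap between its groups was smaller than the spread of its control arrays, and its difference of -0.09, or 1.06-fold, had an adjusted p of 0.0267. The call of Gadd45b was lost with an intensity trend in the variance, with the one-way test of the methods, and without MA replicate 1 or 2 or control replicate 2 or 3, where the difference lay between -0.09 and -0.07. Gadd45b and Gadd45g lay above the background of 3.90 but under the all-GC control at 7.24, as did Zmat3 and Sesn1.

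Whether the family members differed unequally was compared within arrays. The log2 value of Gadd45g minus that of Gadd45a was -6.79 ± 0.073 with MA and -6.23 ± 0.036 in controls (n = 3 each), a change of -0.55 in the ratio. Against Gadd45b it was -0.36 ± 0.051 and 0.27 ± 0.024, a change of -0.63. For Gadd45a against Gadd45b the change was -0.08, from 6.50 ± 0.021 in the control group to 6.43 ± 0.024 in the MA group. Only the changes of these ratios are of interest, since the levels of different probe sets cannot be compared. In all 3 pairs the groups were fully separate, and the exact permutation test gave p = 0.1 in each, also when adjusted over the 3 pairs, so that the design could not pass the threshold of 0.05.

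Cdkn1a, Ccng1 and Zmat3 were higher in the MA arrays on the deposited scale, and of these Zmat3 alone stayed higher when centred on the hybridization controls. Cdkn1a encodes p21, the inhibitor of cyclin-dependent kinases that carries much of the p53 arrest. Its brightest probe set had 11.02, 11.03 and 11.04 in the MA arrays and 10.97, 10.96 and 10.97 in the control arrays, a rise of 0.06 (95% interval 0.01 to 0.11, adjusted p = 0.0414). This small rise was lost on leaving out any of the 6 arrays, with renewed quantile normalization, with median centring and with a replicate block, and it was -0.19 when centred on the hybridization controls and -0.11 with their mean. Its other probe set rose by 0.11 (adjusted p = 0.00602), from 10.66 ± 0.013 to 10.77 ± 0.027. Ccng1, cyclin G1, which recruits a phosphatase to Mdm2, had 11.20 in each of the MA arrays and 11.05, 11.06 and 11.05 in the control arrays. The groups of Ccng1 stood far apart relative to their spread, and the rise of 0.15 (adjusted p = 4.82e-04) was -0.11 when centred on the hybridization controls and -0.03, not past the test, with their mean. Of the dimmer Ccng1 probe sets, 1 rose by 0.08 (adjusted p = 0.0185) and the other did not pass, at 0.05 (adjusted p = 0.0903). Zmat3, a zinc finger protein that binds RNA and regulates splicing downstream of p53, had 6.66, 6.76 and 6.76 in the MA arrays and 6.28, 6.27 and 6.27 in the control arrays. The lowest MA array of Zmat3 was clear of all control arrays. Its rise of 0.45 (standard error 0.032, adjusted p = 1.1e-05) remained a rise when centred on the hybridization controls, at 0.19.

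Mdm2, the ubiquitin ligase of the feedback loop, was lower at both of its probe sets. The brighter had 9.06, 9.07 and 9.06 in the MA arrays and 9.14, 9.19 and 9.17 in the control arrays. The difference was -0.10 (95% interval -0.15 to -0.05, adjusted p = 0.00688). At the other probe set the arrays had 8.59, 8.62 and 8.62 against 8.90, 8.94 and 8.91. There the difference was -0.31 (95% interval -0.36 to -0.25, adjusted p = 1.5e-05), so that the probe sets shared a direction and their intervals did not meet. Averaged, they fell by 0.20.

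The genes of stress and metabolism went opposite ways. Trp53inp1, a nuclear and autophagosomal protein that acts with p53 and in autophagy, had 7.78 in all 3 MA arrays and 8.65, 8.63 and 8.68 in the control arrays. The groups lay far apart, and the difference of -0.88 (standard error 0.022, adjusted p = 2.95e-08) was the largest of the measured members. Its dimmer probe set, at 4.62 in each MA array and 4.71, 4.76 and 4.80 in the control arrays, fell by 0.14 (adjusted p = 0.00434), and the mean of both fell by 0.51. Sesn1, a sestrin that restrains mTORC1 and supports antioxidant defence, had 7.12, 7.13 and 7.12 in the MA arrays and 6.89, 6.92 and 6.91 in the control arrays. It rose by 0.22 (adjusted p = 7.95e-05), and did not pass when centred on the hybridization controls, at -0.04, or on their mean, at 0.04. Of the dimmer Sesn1 probe sets, 1 did not pass, at 0.08 (adjusted p = 0.0567), and the other rose by 0.37 (adjusted p = 2.59e-04), with 5.24, 5.37 and 5.42 against 4.99, 4.99 and 4.93. The MA arrays of that dim probe set varied more than any other group of a member, with an SD of 0.092.

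**Figure D3:**
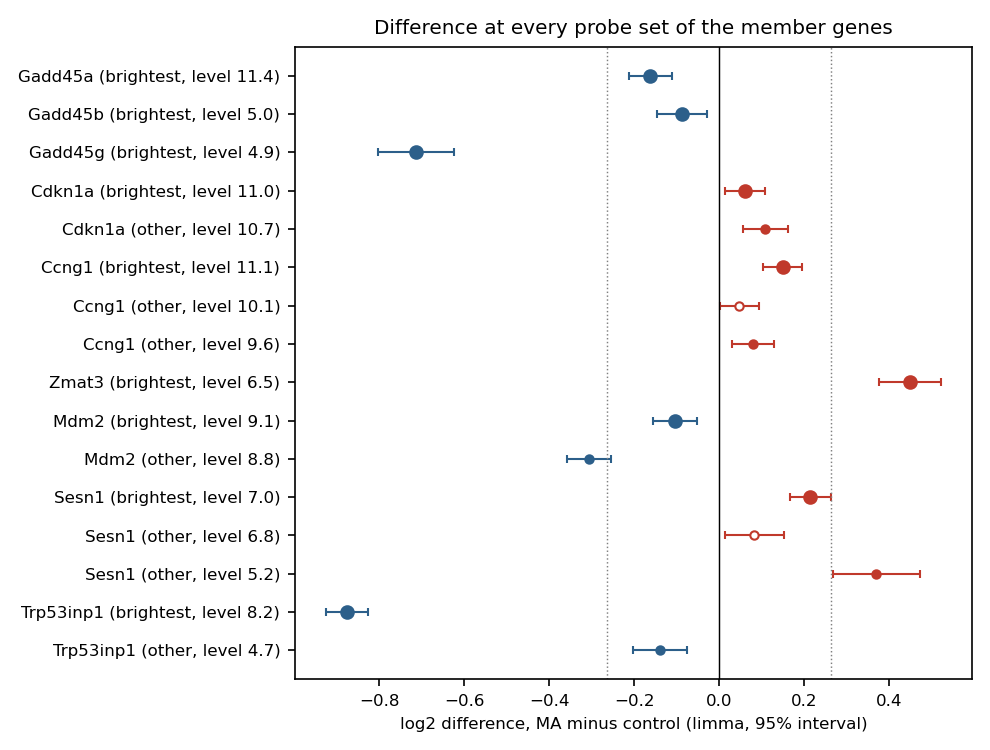
Log2 difference between MA and control at each of the 16 probe sets of the member genes, with the 95% interval of limma, filled where the adjusted p was under 0.05, larger for a gene's brightest probe set, and dotted lines at a fold of 1.2. On this scale probe sets of a gene share a direction in all 5 genes that have more than 1, while their size differs, from -0.88 to -0.14 in Trp53inp1. Centred on the hybridization controls, all probe sets of Cdkn1a and Ccng1 were lower and those of Sesn1 split, at -0.04, -0.17 and 0.11.

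Other genes around p53 were examined in lists that had 75 measured genes of 84. Of these, 33 (44%) fell and 14 (18.7%) rose, and 28 did not pass, beside the 23% and 24.7% of all genes. In both groups, 9 of the 75 lay under background. The median difference was -0.05, against 0.01 over all genes. Past a fold of 1.2, 15 were lower and 3 were higher, where 6.87% of all genes were lower and 5.92% higher. Centred on the hybridization controls, 69 were lower and 1 was higher, beside the 89.1% and 3.94% of all genes. Without MA replicate 2, 9 genes were higher in place of 14.

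Among 13 measured regulators of p53, 5 fell and 3 rose. Mdm4, the partner of Mdm2 that holds p53 inactive, had 8.68, 8.67 and 8.67 in the MA arrays and 9.38, 9.34 and 9.36 in the control arrays. It fell by 0.69 (adjusted p = 1.05e-07), so that both Mdm2 and Mdm4 were lower in the MA group. Crebbp, the acetyltransferase CBP, fell by 0.38. Atr, a kinase of the DNA damage response that was picked after its values were seen, fell by 0.65. Rchy1, a further ubiquitin ligase of p53, rose by 0.28, and did not pass when centred on the hybridization controls, at 0.03. Trp53 itself was named alone by no probe set.

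Of 12 p53 targets in death signaling, 5 fell, 1 rose and 6 did not pass. Under background in both groups were 3 of the 12, among them Pmaip1, which fell from 3.09 to 2.92. Ei24, a protein of the endoplasmic reticulum, fell by 0.38, from 10.45 ± 0.005 to 10.07 ± 0.005. Phlda3, which restrains Akt at the membrane, fell by 0.12. Perp, a membrane protein of cell contacts picked after its values were seen, fell by 0.41. Bbc3 (PUMA), a sensitive target in many tissues, differed by 0.04 (adjusted p = 0.266), and was lower when centred on the hybridization controls, at -0.21. Of 13 targets in arrest, repair and metabolism, 4 fell and 3 rose. Plk2, a kinase, rose by 0.32, and did not pass when centred on the hybridization controls, at 0.06. Trp53inp2, a paralog of Trp53inp1 with a role in muscle autophagy, fell by 0.24. The related Trp53inp genes thus fell in both cases. Xpc, a sensor of damaged DNA picked after its values were seen, fell by 0.40.

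In the Bcl2 family, 6 of 9 fell, 2 rose and 1 did not pass. Both sides of the family were among the falls. Bcl2l11 (Bim), which promotes cell death, fell by 0.44, and Mcl1, which prevents it, fell by 0.16. Bid, the link from death receptors to mitochondria, had the largest fall of the lists, with 5.05, 5.13 and 5.14 in the MA arrays and 5.90, 5.87 and 5.79 in the control arrays.

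Of 14 measured partners of Gadd45 and p21, 4 rose, 4 fell and 6 did not pass. Map3k4, the kinase MEKK4 that Gadd45 proteins bind and activate, rose by 0.37 while the Gadd45 genes fell, and was picked after its values were seen. Mapk14, the p38α kinase further down that route, rose by 0.20, Cdk4 by 0.10 and Pcna by 0.07. Centred on the hybridization controls, Cdk4 and Pcna were lower and Mapk14 did not pass, at -0.05, while Map3k4 stayed higher, at 0.12. Of 4 paralogs of members, Cdkn1c (p57) fell by 0.37, Sesn3 by 0.14 and Ccng2 by 0.13, while the other, Cdkn1b, rose by 0.11 and was lower when centred on the hybridization controls. On the deposited scale Cdkn1c, Sesn3 and Ccng2 thus moved opposite to Cdkn1a, Sesn1 and Ccng1. Centred on the hybridization controls all of these differences were negative. The gaps between the paralogs stayed the same, since centring moves every gene of an array alike. These contrasts were not tested as such.

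Of 10 regulators and markers of denervation atrophy, 6 fell and 0 rose. Chrng, the fetal subunit of the acetylcholine receptor that returns after denervation, fell by 0.68, from 7.82 ± 0.001 to 7.13 ± 0.032. Runx1, a transcription factor induced by denervation, fell by 0.28 and Fbxo32, the ubiquitin ligase Atrogin-1, fell by 0.35. Atf4, an inducer of Gadd45a, differed by 0.03 (95% interval -0.01 to 0.08, adjusted p = 0.223). Centred on the hybridization controls Atf4 was lower, at -0.22, as were 89.1% of all genes. Hdac4 was named alone by no probe set.

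**Figure D4:**
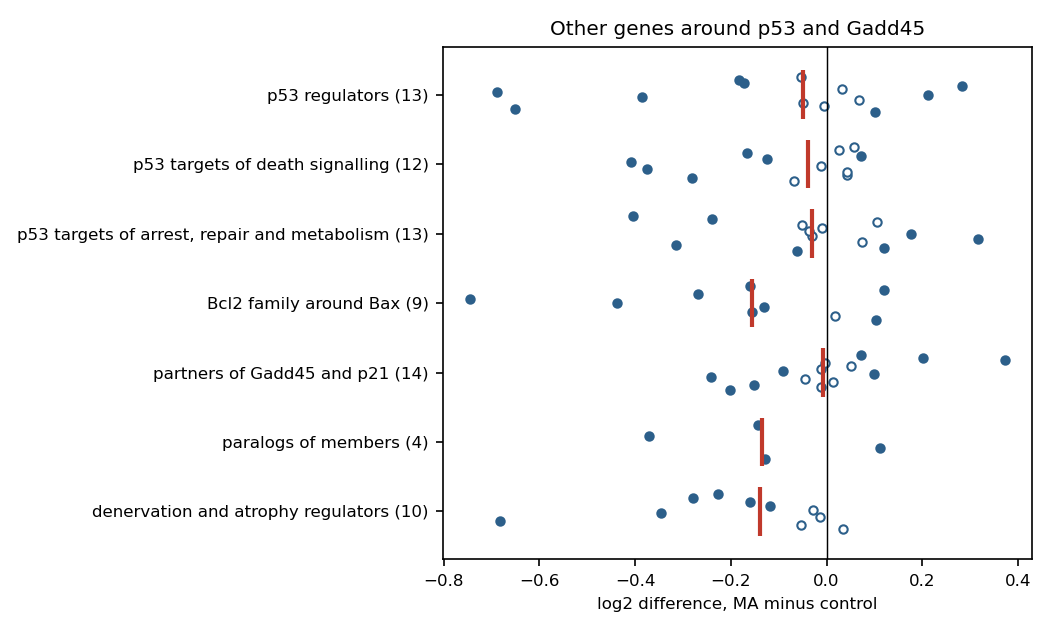
Log2 difference between MA and control of the 75 measured genes of 7 lists around p53 and Gadd45, with 1 point per gene at its brightest probe set, filled where the adjusted p was under 0.05, a red bar at the median and the number of genes in parentheses. Medians lie between -0.16 for the Bcl2 family and -0.01 for the partners of Gadd45 and p21, and centring on the hybridization controls moves all points by -0.26.

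Markers of other cells moved beside these genes. For comparison, 23% of all genes were lower and 24.7% higher, and past a fold of 1.2 these shares were 6.87% and 5.92%. Of 12 macrophage markers, 10 were lower in the MA group and 0 were higher, 8 of the falls past a fold of 1.2. Their summed linear signal was 2037 to 2093 in the MA arrays and 3304 to 3374 in the control arrays, and 12 of 12 lay above background, with Lyz2 at 10.08 ± 0.015 and 10.77 ± 0.016. Of 10 fiber markers, 5 were higher, 1 was lower and 4 did not pass, with 0 of these changes past a fold of 1.2. Their sum was 49775 to 49942 in the MA arrays and 47603 to 47802 in the control arrays. Endothelial markers were lower in 6 of 7 cases, 1 of them under background in both groups, with sums of 272 to 277 and 305 to 321. Fibroblast markers went the other way, with 4 of 8 higher, 3 of them past a fold of 1.2, and 1 lower, and with sums of 3455 to 3477 in the MA arrays and 3244 to 3271 in the control arrays. Of the Schwann cell markers, 3 of 4 were higher and 1 was lower, with sums of 288 to 295 and 279 to 294 that overlapped. Neutrophil markers were higher in 2 of 5 cases and lower in 1, T cell markers higher in 1 of 6 and lower in 3, and satellite cell markers higher in 1 of 5 and lower in 2. Under background in both groups were 2 neutrophil markers, the lower one among them, and 2 T cell markers, with a lower one among them. Of 7 proliferation genes 2 rose, Mcm6 by 0.45 and Rrm2 by 0.28, both past a fold of 1.2, and 5 did not pass. Among the latter, Mki67 was under background in both groups, at 3.32 ± 0.031 and 3.38 ± 0.030. All these counts and sums are on the deposited scale. Centring on the hybridization controls moves the difference of each marker by -0.26. The rises of fiber markers, up to 0.18, and of Schwann cell markers, up to 0.24, are then negative. So is the median difference of the fibroblast markers, 0.10, while their 3 rises past a fold of 1.2, from 0.59 to 1.22, stay positive. The part of these cells in the differences of Gadd45g, Trp53inp1, Mdm2 and the other members was not tested, and in whole muscle fewer cells of a type and less RNA per cell cannot be told apart.

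Pearson's r over the 6 arrays was taken at the brightest probe set, among the 10663 genes whose mean was above the median of all probe sets. The genes most similar in pattern to Gadd45g were Slco2b1, Pigb, Tgfa, Fcer1g and Acvr2a, with r from 0.9990 to 0.9997. They differed by -0.32, -0.62, -0.35, -0.72 and -0.20. Those most like Zmat3 were Naa38, Cenpx, Zfp277, Uaca and Mrps18a, with r from 0.9990 to 0.9996 and differences of 0.19, 0.40, 0.11, 0.36 and 0.18. With 2 groups of arrays such values are common, and 2172 genes had an r over 0.95 with Gadd45g and 1953 with Zmat3.

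**Figure D5:**
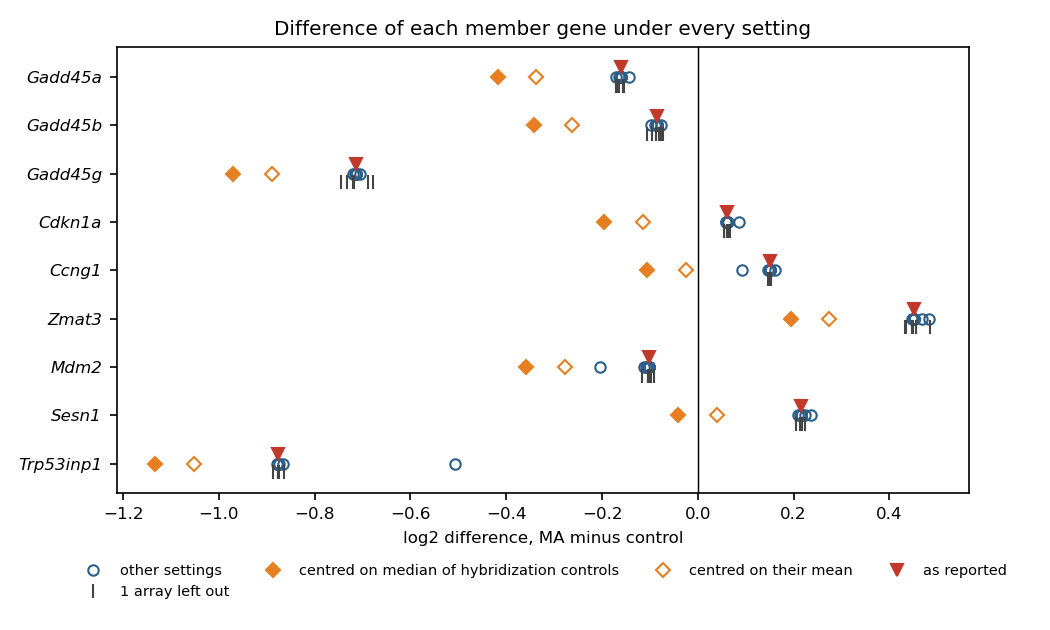
Log2 difference of the 9 measured genes as reported (red triangles), with each of the 6 arrays left out (ticks), centred on the median (filled diamonds) or the mean (open diamonds) of the hybridization controls and under the other settings (open circles). Trp53inp1 and Gadd45g stay lower and Zmat3 stays higher in all of these that measured them, while with the median of the controls Cdkn1a and Ccng1 are lower, at -0.19 and -0.11, and Sesn1 does not pass, at -0.04.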

How the data were processed

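Gastrocnemius RNA of denervated mice was labelled with a 3′ IVT kit and hybridized to mouse genome PM array strips, while the series' design text gives a human array. Scans were turned by the authors into RMA values in Affymetrix Expression Console (version not given in the sources used here), which corrects background, quantile-normalizes and yields 1 log2 value per probe set. The deposited table held these log2 values for 45141 probe sets, of which 104 array controls were left out. Its arrays had medians from 4.27 to 4.28, and the number of arrays limits the precision.

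Groups and replicate numbers were taken from the sample titles. Gene names came from the platform annotation, in which 28898 probe sets named 1 gene, 551 several and 15588 none, and current symbols through Entrez numbers changed none of them. The values were fitted in R 4.3.3 with limma 3.58.1 (lmFit and eBayes, no trend and no covariate), with Benjamini-Hochberg adjustment over 45037 probe sets. These steps were tested on simulated data. Members, gene lists, motifs and tests were chosen with earlier results of these data known. Named genes were the members, up to 3 genes of each list with the largest difference among those that passed and lay above all 23 nonspecific binding controls, Trp53, Mdm4, Atf4 and Hdac4, and the 5 genes most correlated with Gadd45g and with Zmat3. Cdkn1b, Bbc3, Atr, Perp, Pmaip1, Xpc, Bid, Map3k4, Lyz2, Mcm6, Rrm2 and Mki67 were named after their values were seen. Alternatives were an eBayes trend, robust moderation, renewed quantile normalization, centring on the median or the hybridization controls, a replicate block, array weights, filters against dim probe sets, the one-way test of the methods, averaged probe sets and leaving out each array. The filter at 3.90 and the centring on the mean of the hybridization controls were added after seeing the data. Real-time PCR was not analysed here.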

Additional observations from a re-analysis of the deposited data

Results flagged for a closer look

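The hybridization controls, which are no part of the comparison of genes, were higher in the MA arrays at 18 of 18 probe sets, with a median log2 difference of 0.173. They stood out as a signal outside the measured genes that differed between the groups. With 3 arrays in a group, no test for a single outlying array was made.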

How the results depend on the processing

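Of 167 values of single members under alternatives, 140 kept their direction and their side of the threshold, 22 kept the direction but no longer passed, 0 newly passed, and 5 reversed sign, all with centring on the hybridization controls, namely Cdkn1a at -0.195, Ccng1 at -0.106 and Sesn1 at -0.0413 with their median, and Cdkn1a at -0.114 and Ccng1 at -0.0256 with their mean. With the median 1 member gene and 2 member probe sets were higher and 13 member probe sets were lower, and in the lists around p53 1 gene was higher and 69 were lower. With the mean, chosen after seeing the data, 1 member gene and 2 member probe sets were higher and 12 member probe sets were lower, and 3 list genes were higher and 62 lower. Leaving out probe sets under the all-GC control at 7.24, which left fewer genes to count, gave 2 member genes higher, 3 lower, 4 member probe sets lower and 18 list genes lower. The filter at 3.90, chosen after seeing the data, gave 4 and 5 member genes. The one-way test of the methods with its fold of 1.2, which 6 of the 9 members' differences do not reach, gave 1 member gene higher and 2 lower, 2 and 3 member probe sets, and 3 and 15 list genes. With Benjamini-Hochberg adjustment in place of the fold it gave 4 and 4 member genes. Leaving out 1 array gave 9 to 15 list genes higher, the fewest without MA replicate 2, and 3 member genes higher in each case. Same-numbered arrays deviated together with r of 0.19, 0.04 and 0.14, and 4 of 6 arrays correlated best with their own number. Whether same-numbered arrays share more than a number is not given by the labels and was not tested. With the replicate block 3 member genes were higher and 5 lower, and 13 and 32 list genes.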
